A study of Mus musculus with 20 samples.

Results

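Arntl (also called Bmal1), Clock and Npas2 encode the activators of the circadian clock, and these 3 of the 21844 genes in the count table are described here by their RNA levels in mouse hindlimb muscle. They were chosen by gene name alone. All mice had the genotype Cre+:iMSBmal1 fl/fl, that is, a floxed Bmal1 gene and a Cre recombinase, and the labels call the knockout muscle-specific. The 4 groups were Vehicle Control (vehicle, no exercise), iMSBmal1KO Control (muscle Bmal1 knockout, no exercise), Vehicle Exercise Trained and iMSBmal1KO Exercise Trained, with 5 libraries each. Training was on a treadmill, daily over 6 weeks. Collection was 48 hours post per the sample labels and 47 hours after the last bout per the series design. Every library carries the same collection time, so levels over the day were not measured. For these circadian genes, a change of level and a change of daily timing cannot be told apart here. The labels name the tissue both as gastrocnemius and as tibialis anterior, and they give no promoter for the Cre, no inducing agent, age or sex. A knockout limited to muscle leaves the gene in the other cells of the tissue.

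BMAL1 is a bHLH-PAS transcription factor that binds DNA as a dimer with CLOCK, or with its close relative NPAS2, at E-box sites. The dimer switches on its own repressors, the PER and CRY proteins, and also the nuclear receptors REV-ERB-alpha and REV-ERB-beta (Nr1d1 and Nr1d2). REV-ERB proteins repress, and ROR proteins activate, genes that carry a ROR response element (RORE). Arntl is the classical gene under this second loop, which thus runs from BMAL1 back to its own gene.

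The letters of a RORE core occur in the reference sequence of Arntl, and are shown here. Whether this site is used in this muscle was not tested. Promoter windows, from 250 bases before to 50 after each start site, came from RefSeq (GRCm38.p6) and were found for all 3 genes, 2 for Arntl, 3 for Clock and 1 for Npas2. They were searched on both strands for the RORE core (TAGGTCA or TGGGTCA), the E-box (CACGTG), an E-box variant (CACGTT) and the D-box (TTATGTAA or TTACGTAA). The RORE core was found in 1 of the 6 windows, that of the second Arntl start site, beginning at base 31 of the transcript, at chr7:113207541-113207547 on the plus strand. Over all 32851 windows of mouse genes, 6.45% hold this core. Nfil3, another clock gene described below, holds it 12 bases before its start site. In the following 30-base stretches, chr7:113207529-113207558 (plus strand) for Arntl and chr13:52981034-52981063 (minus strand) for Nfil3, capitals mark the core, which in Nfil3 lies on the opposite strand.
Arntl: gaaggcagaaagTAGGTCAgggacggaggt
Nfil3: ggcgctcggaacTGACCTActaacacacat

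None of the 6 windows of the 3 activator genes held an E-box, an E-box variant or a D-box. The E-box is found in 7.15% of all windows, the variant in 4.68% and the D-box in 1.06%. For 13 other clock genes, 6 of 15 windows held the E-box. The gene of the repressor CIART (chr3:95882263-95882354, minus strand, upstream of its start site) held the E-box 3 times and is shown for contrast, with those sites in capitals.
Ciart: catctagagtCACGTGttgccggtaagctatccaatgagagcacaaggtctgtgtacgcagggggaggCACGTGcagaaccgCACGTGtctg

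Bases before a RefSeq start site of each activator gene are shown in lower case throughout, since they held none of the motifs searched. They are chr7:113207215-113207464 (plus strand) for Arntl, chr5:76304793-76305042 (minus strand) for Clock and chr1:39194022-39194211 (plus strand) for Npas2. The first 2 end at the gene as GENCODE annotates it, and the Npas2 stretch lies inside the GENCODE gene, before the later start site that RefSeq gives. Their GC content was 58.8% for Arntl, 76.4% for Clock and 75.3% for Npas2. A window without a match says only that these letters are not in it.
Arntl: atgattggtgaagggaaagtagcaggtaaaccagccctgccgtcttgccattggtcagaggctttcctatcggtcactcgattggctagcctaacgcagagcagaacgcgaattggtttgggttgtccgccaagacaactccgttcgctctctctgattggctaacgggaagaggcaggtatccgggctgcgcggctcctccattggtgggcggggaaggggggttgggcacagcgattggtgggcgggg
Clock: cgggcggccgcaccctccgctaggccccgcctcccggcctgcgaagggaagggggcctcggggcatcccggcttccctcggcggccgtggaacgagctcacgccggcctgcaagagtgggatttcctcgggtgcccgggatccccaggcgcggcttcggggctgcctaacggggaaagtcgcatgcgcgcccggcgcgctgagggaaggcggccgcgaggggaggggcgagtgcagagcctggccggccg
Npas2: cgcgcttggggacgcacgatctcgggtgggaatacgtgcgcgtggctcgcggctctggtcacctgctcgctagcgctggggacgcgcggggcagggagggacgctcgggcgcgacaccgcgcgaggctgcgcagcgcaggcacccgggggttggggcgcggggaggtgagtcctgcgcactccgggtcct

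Library totals ran from 10610333 to 19153527 estimated counts. Knockout-trained libraries 1 and 4, and likewise 3 and 5, were much closer to each other than any other pair. At 1000 to 10000 counts their median squared differences were 2.38 and 1.76 times those of sampling noise. The other 188 pairs had at least 6.381 times. Each of the 2 close pairs was counted as 1 sample, which leaves 3 knockout-trained samples and 18 samples in all. Knockout-trained library 1 was closer to knockout sedentary library 4 (7.16 times sampling noise) than to knockout-trained libraries 2 (65.8) and 3 (41.6). Vehicle-trained library 2 stood apart: on the log2(CPM + 1) scale 3730 of 14359 genes lay over 2-fold away from its group's other libraries, against at most 582 in any of the other 17 samples. It stayed in the fit, and the tests of Arntl, Clock and Npas2 are given with and without it. Summed markers of muscle fibres lay between 51500 and 88300 CPM (counts relative to each library's TMM-scaled total), with all 8 markers present. The labels do not say whether the libraries of a group came from separate animals, so p-values measure the spread between these libraries.

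Arntl, the targeted gene (ENSMUSG00000055116; chr7:113207465-113314126, plus strand, protein coding, GRCm38), did not show lower counts under the knockout label. In the 5 vehicle sedentary libraries its level was 7.448, 6.22, 6.328, 7.394 and 5.974 CPM. In those labelled knockout sedentary it was 17.53, 10.76, 10.36, 11.06 and 12.99 CPM. All 5 of the latter lay above all 5 of the former. In vehicle trained muscle 4 libraries held 6.39, 6.921, 5.971 and 6.748 CPM, while library 2 held 142.1 CPM. The knockout trained samples were at 15.7 CPM (mean of libraries 1 and 4), 9.497 CPM (library 2) and 8.939 CPM (mean of libraries 3 and 5), above the 4 vehicle trained libraries and far below library 2. A count over the whole gene does not separate transcripts with and without the floxed part, so it checks neither the deletion nor the label. All directions below are therefore those of the libraries as labelled. Arntl shares 33 exonic bases with an antisense gene, Gm45355, and the strand setting of the counts is not given in the sources used here.

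Clock (ENSMUSG00000029238; chr5:76209868-76304792, minus strand), which encodes the usual partner of BMAL1, was higher in every library labelled knockout sedentary than in any vehicle sedentary library. The vehicle sedentary libraries held 33.52, 31.42, 33.26, 35.03 and 30.83 CPM. The libraries labelled knockout sedentary held 78.42, 82.2, 66.03, 72.26 and 79.38 CPM. In vehicle trained muscle it was 31.8, 57.98, 34.47, 33.24 and 32.33 CPM, the high value again being that of library 2. The knockout trained samples held 77.09 CPM (libraries 1 and 4), 52.65 CPM (library 2) and 56.08 CPM (libraries 3 and 5). They lay above 4 vehicle trained libraries, and the fifth fell among them.

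Npas2 (ENSMUSG00000026077; chr1:39193731-39363236, plus strand), whose product can take the place of CLOCK, was low in vehicle muscle. Its 5 vehicle sedentary libraries held 0.3879, 0.2592, 0.7087, 0.5004 and 0 CPM, from 0 to 14 counts each. The library with 0 counts allows a level of up to 0.193 CPM (3 counts, counting error only). The libraries labelled knockout sedentary held 3.625, 3.441, 1.703, 3.326 and 4.016 CPM, from 23 to 74 counts, with no overlap. Vehicle trained libraries held 0.1436, 2.271, 0.5989, 0.2689 and 0.06681 CPM, library 2 once more being the highest. The knockout trained samples were at 4.511 CPM (libraries 1 and 4), 3.749 CPM (library 2) and 2.447 CPM (libraries 3 and 5), above every vehicle trained value, library 2 included. Libraries 3 and 5 taken singly held 3.362 and 1.532 CPM, and the latter lies below vehicle-trained library 2.

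**Figure D1:**
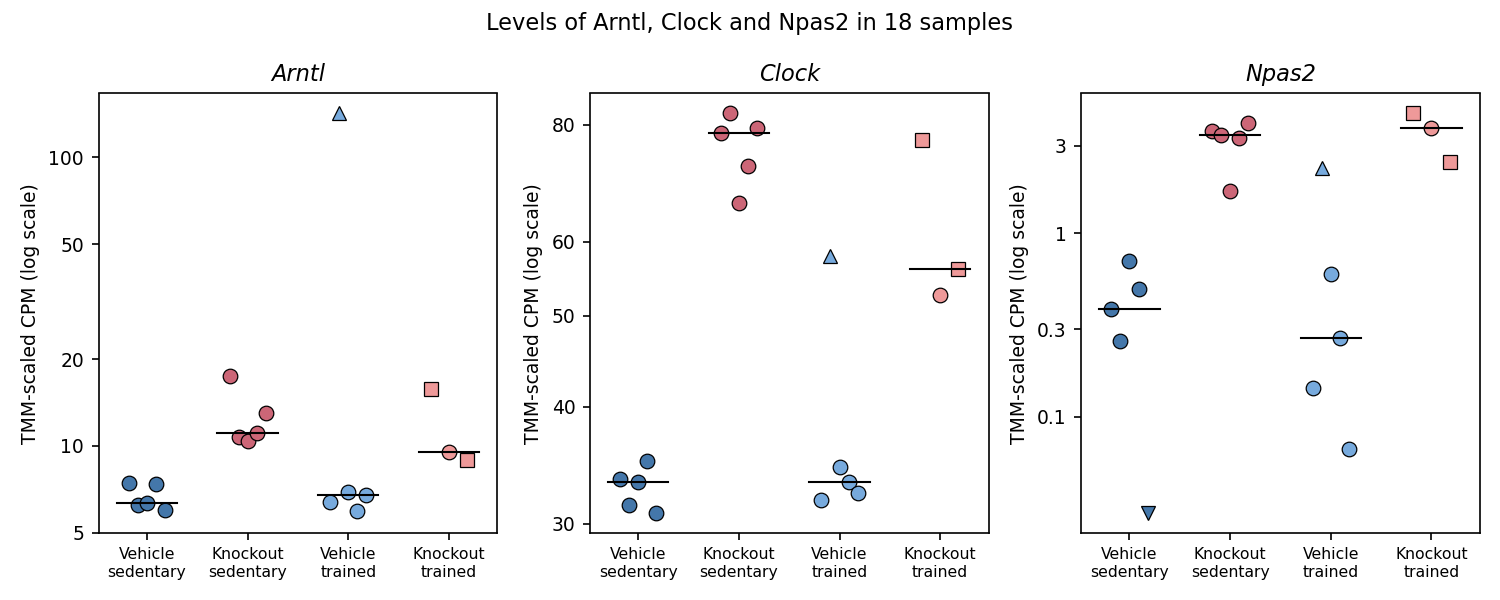
Level of each gene in TMM-scaled CPM (log axis) in the 18 samples, by group. Horizontal bars are group medians, and squares are means of 2 libraries counted as 1 sample. The upward triangle is vehicle-trained library 2, and the downward triangle is a library with 0 counts drawn at the bottom of the axis. Knockout sedentary samples lie above vehicle sedentary samples for each gene, and the upward triangle stands above the other vehicle trained libraries.

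Compared per kilobase of exon, Clock was the most abundant of the 3 and Npas2 the least in every group once vehicle-trained library 2 was set aside. This order holds only for the collection time sampled. Length was the union of all annotated exons, 7523 bases for Arntl, 13727 for Clock and 4791 for Npas2. The transcripts present may be shorter, and levels per kilobase depend on this choice. In vehicle sedentary muscle the level per kilobase was 2.39 ± 0.123 CPM for Clock, 0.887 ± 0.0924 for Arntl and 0.0775 ± 0.0553 for Npas2 (SD, n = 5). In muscle labelled knockout sedentary it was 5.51 ± 0.473 for Clock, 1.67 ± 0.394 for Arntl and 0.673 ± 0.185 for Npas2 (SD, n = 5). The ranges of neighbouring genes in this order did not overlap within either group. In knockout trained samples the ranges were also apart, from 3.84 to 5.62 CPM per kilobase for Clock, from 1.19 to 2.09 for Arntl and from 0.511 to 0.942 for Npas2. Vehicle-trained library 2 had another order, with Arntl at 18.9, Clock at 4.22 and Npas2 at 0.474 CPM per kilobase. Its Clock level per kilobase was 0.224 times its Arntl level, while in the other 17 samples this ratio ran from 2.45 to 4.19.

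The make-up of the pool of BMAL1 partners also differed between the groups as measured by RNA. Npas2 made up between 0 and 5.75% of the summed Clock and Npas2 level per kilobase in vehicle sedentary libraries, with a median of 3.21%. It made up between 6.88% and 12.7% in those labelled knockout sedentary, with a median of 11.7%, so these groups did not overlap. In trained muscle the share was between 0.589% and 10.1% in vehicle libraries, 4.74% being the highest without library 2, and between 11.1% and 16.9% in knockout samples. The 11.1% is that of knockout-trained libraries 3 and 5 averaged. Library 5 alone held 0.3198 CPM per kilobase of Npas2 and 4.115 of Clock. Vehicle-trained library 2 held 0.474 and 4.224, so the share of knockout-trained library 5 alone lay below 10.1%. In vehicle sedentary libraries the share rests on 0 to 14 Npas2 counts each. Clock RNA thus stayed the larger part in every sample. This share was not put to a test, since it combines genes chosen together.

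**Figure D2:**
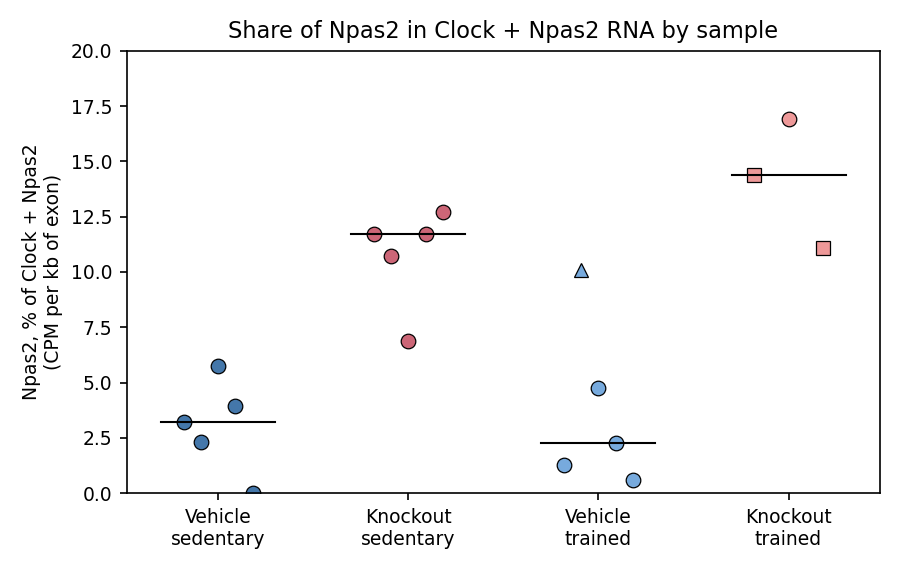
Share of Npas2 in the summed level of Clock and Npas2 (CPM per kilobase of exon, in percent) by sample and group. Bars are medians, squares are means of 2 libraries counted as 1 sample and the triangle is vehicle-trained library 2. The knockout samples lie between 6.88% and 16.9%, and all vehicle samples except the triangle lie at or below 5.75%.

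The first comparison sets sedentary libraries labelled knockout against sedentary vehicle libraries. Clock and Npas2 rose in the libraries labelled knockout, and Arntl did not pass the test in the fit of all 18 samples. Clock was 2.30-fold higher, a log2 difference of 1.20 ± 0.158 (SE; quasi-likelihood test of edgeR, Benjamini-Hochberg adjusted p = 0.000166), which ranked 46 of 14359 genes by p. Npas2 was 8.27-fold higher, at 3.05 ± 0.663 on the log2 scale (edgeR adjusted p = 0.0145). Its highest vehicle sedentary level, 0.7087 CPM, lay under the 1 CPM asked by the filter on low counts. Npas2 was thus among the tested genes only through libraries of other groups. With no filter its log2 change was 3.05 (edgeR adjusted p = 0.0157). For Arntl the log2 difference with the filter was 0.91 ± 0.742 (edgeR adjusted p = 0.886). Of all tested genes, 2.33% passed in this comparison, 1.02% higher and 1.31% lower. An unadjusted p under 0.05 was found for 9.81% of genes. Both groups' ranges were apart for each of Arntl, Clock and Npas2, as they were for 8.68% of all genes. Each gene taken singly gave the smallest p that this design allows in an exact permutation test of log2(CPM + 1) (two-sided, p = 0.00794).

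The missed call for Arntl rests on a library outside the groups compared. The fit takes its estimate of spread from all 4 groups, and without vehicle-trained library 2 the SE of Arntl fell to 0.166, while its log2 change stayed at 0.92 (edgeR adjusted p = 0.00115). For Clock it was then 1.21 ± 0.0946 (edgeR adjusted p = 8.09e-08), and for Npas2 3.05 ± 0.461 (edgeR adjusted p = 0.000204). All 3 genes were thus called higher, against 3.14% of all genes called higher, 3.84% lower and 6.98% in either direction. With only the 2 sedentary groups in the fit, Arntl was called as well, at a log2 change of 0.91 (edgeR adjusted p = 0.00121).

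The summed markers of each of 7 other cell types overlapped between the sedentary groups. The summed level of the 4 satellite cell markers was closest to moving with the genes, from 28.5 to 34.6 CPM in vehicle and from 34.5 to 40.6 CPM in knockout libraries, with none of them at 0. Of these 4, Cdh15, a cadherin gene, passed without library 2, higher in sedentary (log2 change 0.36, edgeR adjusted p = 0.0382) and in trained muscle (0.52, edgeR adjusted p = 0.0134), while Pax7, which defines the cells, was at 5.27 and 5.21 CPM in the sedentary groups. Col3a1, a fibroblast collagen gene, also passed in sedentary muscle without library 2 (log2 change 0.92, edgeR adjusted p = 0.0188). The part of these markers in the result was not tested. In whole tissue, more cells of a type and more RNA per cell cannot be told apart.

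In trained muscle the same comparison depended on vehicle-trained library 2. With it, Clock rose by a log2 change of 0.70 (SE 0.177, edgeR adjusted p = 0.0369). Npas2 had a log2 change of 2.41 (SE 0.680, edgeR adjusted p = 0.0598), and Arntl one of -1.57 (SE 0.875, edgeR adjusted p = 0.372), neither past the threshold. The fibre marker Mb, encoding myoglobin, was also higher in this comparison, with a log2 change of 0.96 (edgeR adjusted p = 0.0438) and, without library 2, 0.79 (edgeR adjusted p = 0.00993). Of the 8 fibre markers it was the only 1 past the threshold, with and without library 2. The part of Mb in the result was not tested. Over all genes 3.29% passed, 1.99% being higher and 1.3% lower, and 17.2% had an unadjusted p under 0.05. Npas2 was the only 1 of the 3 whose groups did not overlap, against 8.96% of all genes (exact permutation test, two-sided, p = 0.0357, where 0.0179 is the smallest possible). With the 20 libraries taken as separate, the Npas2 groups overlapped as well, through knockout-trained library 5. Without library 2 all 3 genes were called higher, against 5.01% of all genes called higher, 3.65% lower and 8.66% in either direction. The log2 change was then 0.81 for Arntl (SE 0.198, edgeR adjusted p = 0.0148), 0.91 for Clock (SE 0.112, edgeR adjusted p = 3.56e-05) and 3.67 for Npas2 (SE 0.563, edgeR adjusted p = 0.000363). Each of the 3 genes then had all knockout samples above all 4 vehicle libraries (exact permutation test, two-sided, p = 0.0286 for each, the smallest this size allows).

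The call for Clock in trained muscle with all 18 samples stood close to the threshold. It was lost when any 1 of 10 samples other than library 2 was left out, with a log2 change between 0.52 and 0.77 and an adjusted p between 0.0503 and 0.165 (edgeR), and it was lost with only the 2 trained groups in the fit (log2 change 0.69, edgeR adjusted p = 0.492). With those 2 groups alone and library 2 left out, Npas2 passed (log2 change 3.67, edgeR adjusted p = 0.00741) and Arntl did not (log2 change 0.80, edgeR adjusted p = 0.0876).

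**Figure D3:**
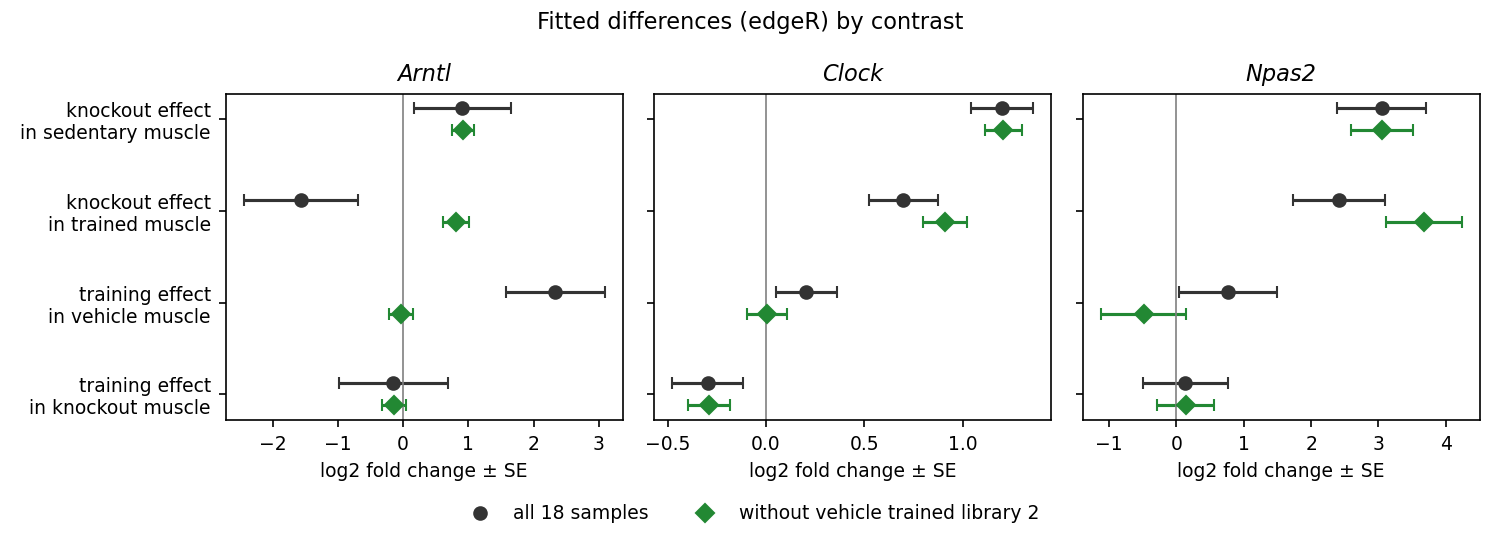
Fitted log2 fold change with its SE for each gene (panels, with their own horizontal scales) in the 4 pairwise comparisons. Circles are from all 18 samples and diamonds from the 17 samples without vehicle-trained library 2. Arntl in trained muscle moves from -1.57 to 0.81 when that library is left out, while the sedentary values keep their place and their SE becomes smaller.

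Training itself did not change any of the 3 genes past the threshold. In vehicle muscle, without library 2, the log2 change was -0.04 for Arntl (SE 0.181), 0.01 for Clock (SE 0.101) and -0.49 for Npas2 (SE 0.636), with edgeR adjusted p-values of 0.943, 0.982 and 0.741. With library 2 it was 2.33 for Arntl (SE 0.756, edgeR adjusted p = 0.272), while Clock had 0.21 (SE 0.157) and Npas2 0.77 (SE 0.727), with edgeR adjusted p-values of 0.503 and 0.586. Ranges overlapped for each of the 3 genes, and did not overlap for 1.87% of all genes. Mean Clock levels were 32.8 ± 1.69 CPM in sedentary (SD, n = 5) and 33.0 ± 1.17 CPM in trained vehicle muscle without library 2 (SD, n = 4).

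In muscle labelled knockout, Clock was lower after training by a log2 change of -0.30 (SE 0.181, edgeR adjusted p = 0.668), and an exact permutation test (two-sided) gave p = 0.0893. The log2 difference was -0.15 for Arntl (SE 0.839) and 0.13 for Npas2 (SE 0.633), both with an edgeR adjusted p of 0.996. Without vehicle-trained library 2 the values were -0.29 for Clock, -0.14 for Arntl and 0.14 for Npas2, with edgeR adjusted p-values of 0.167, 0.762 and 0.918. Samples overlapped between sedentary and trained knockout muscle for each gene, and did not overlap for 8.64% of all genes. For Clock and Arntl the overlap came only from the knockout-trained sample of libraries 1 and 4, at 77.09 and 15.7 CPM. The other knockout trained samples held 52.65 and 56.08 CPM of Clock, and 9.497 and 8.939 CPM of Arntl. These lay below the lowest sedentary knockout levels, 66.03 CPM for Clock and 10.36 CPM for Arntl. No gene of 14359 passed in either training comparison, or 0%, and 15.2% in vehicle and 9.71% in knockout muscle had an unadjusted p under 0.05 in edgeR. DESeq2 called 0 genes in vehicle muscle and 173 in knockout muscle, and Clock was not among the latter (DESeq2 adjusted p = 0.637), while DESeq2 gave no adjusted p for Arntl or Npas2 there. Without library 2, edgeR called 0.843% of genes in knockout muscle, 0.696% higher and 0.146% lower, again without the 3 activators.

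Whether training acted differently by genotype was tested as an interaction. The difference between the training effects, knockout minus vehicle, was -2.48 on the log2 scale for Arntl (SE 1.14, edgeR adjusted p = 0.661), -0.50 for Clock (SE 0.239, edgeR adjusted p = 0.662) and -0.63 for Npas2 (SE 0.961, edgeR adjusted p = 0.874). Without vehicle-trained library 2 the values were -0.11 for Arntl, -0.30 for Clock and 0.63 for Npas2, with edgeR adjusted p-values of 0.919, 0.455 and 0.813. Of all genes 0% passed with edgeR, 7.49% had an unadjusted p under 0.05, and DESeq2 called 29.

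The other clock genes give the setting for these 3. Of 28 listed, 26 were tested, and in sedentary muscle 7 fell and 0 rose in the libraries labelled knockout, where 1.31% of all genes were called lower and 1.02% higher. Their median log2 change was -0.51, beside 0.01 over all genes. Without vehicle-trained library 2, 15 fell and 1 rose, against 3.84% and 3.14% of all genes. In trained muscle 5 fell and 0 rose with all samples, against 1.3% and 1.99% of all genes. There 13 fell and 3 rose without that library, against 3.65% and 5.01%. Per2, Ciart, Nr1d2, Dbp, Tef and Usp2, named below with all samples, also passed in sedentary muscle without it.

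Among the repressors, 3 of 9 fell in sedentary muscle with all samples and 7 of 9 without vehicle-trained library 2. Per2, a core repressor, fell from 43.5 to 20.5 CPM (log2 change -1.09, SE 0.104, edgeR adjusted p = 4.64e-06). Ciart fell from 6.8 to 1.69 CPM (log2 change -2.0, SE 0.391, edgeR adjusted p = 0.0066). Whether its 3 E-boxes shown above bear on this fall was not tested. The windows of Dbp and Nr1d2, which also fell, held 0 E-boxes, and that of Cry1 held 1. Cry1, which encodes another core repressor, was at 21.3 CPM in vehicle and 22.1 CPM in knockout muscle (log2 change 0.05, edgeR adjusted p = 0.996). Cipc, whose product binds CLOCK, did not pass with all samples (edgeR adjusted p = 0.479) and fell without library 2 (log2 change -0.39, edgeR adjusted p = 0.0327).

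Of the nuclear receptors of the second loop, 1 of 4 tested fell in sedentary muscle with all samples and 3 of 4 without library 2. Nr1d2, encoding REV-ERB-beta, fell from 275 to 117 CPM in sedentary muscle (log2 change -1.24, SE 0.133, edgeR adjusted p = 1.95e-05) and by a log2 change of -1.31 in trained muscle (edgeR adjusted p = 0.000126). Nr1d1, encoding REV-ERB-alpha, was at 72.6 and 50.9 CPM and passed without library 2 (log2 change -0.51, edgeR adjusted p = 0.000615). Rora, an activator at the RORE, fell in sedentary muscle without library 2 (log2 change -0.50, edgeR adjusted p = 0.0127). In trained muscle it fell with all samples (log2 change -1.45, edgeR adjusted p = 0.0321) and without library 2 (log2 change -0.87, edgeR adjusted p = 0.000897).

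Nfil3 was the listed gene that rose in both training states without library 2, as Arntl, Clock and Npas2 did. Nfil3 encodes the repressor at D-box sites, and its window holds the RORE core printed above. The windows of Clock and Npas2 held 0 such cores, and a link between the core and these changes was not tested. The sedentary mean of Nfil3 was 31.7 CPM with vehicle and 72.5 CPM under the knockout label. Its log2 change of 1.19 did not pass with all samples (SE 0.692, edgeR adjusted p = 0.687). Without vehicle-trained library 2 it rose in sedentary muscle (log2 change 1.20, edgeR adjusted p = 3.11e-06) and in trained muscle (log2 change 1.34, edgeR adjusted p = 1.05e-05). That library held 542 CPM of Nfil3, where the other 4 of its group held from 25.1 to 35.9 CPM. The D-box activators moved the other way: Dbp fell from 133 to 38.9 CPM (log2 change -1.77, edgeR adjusted p = 0.0415) and Tef from 370 to 183 CPM (log2 change -1.03, edgeR adjusted p = 1.03e-05) in sedentary muscle.

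**Figure D4:**
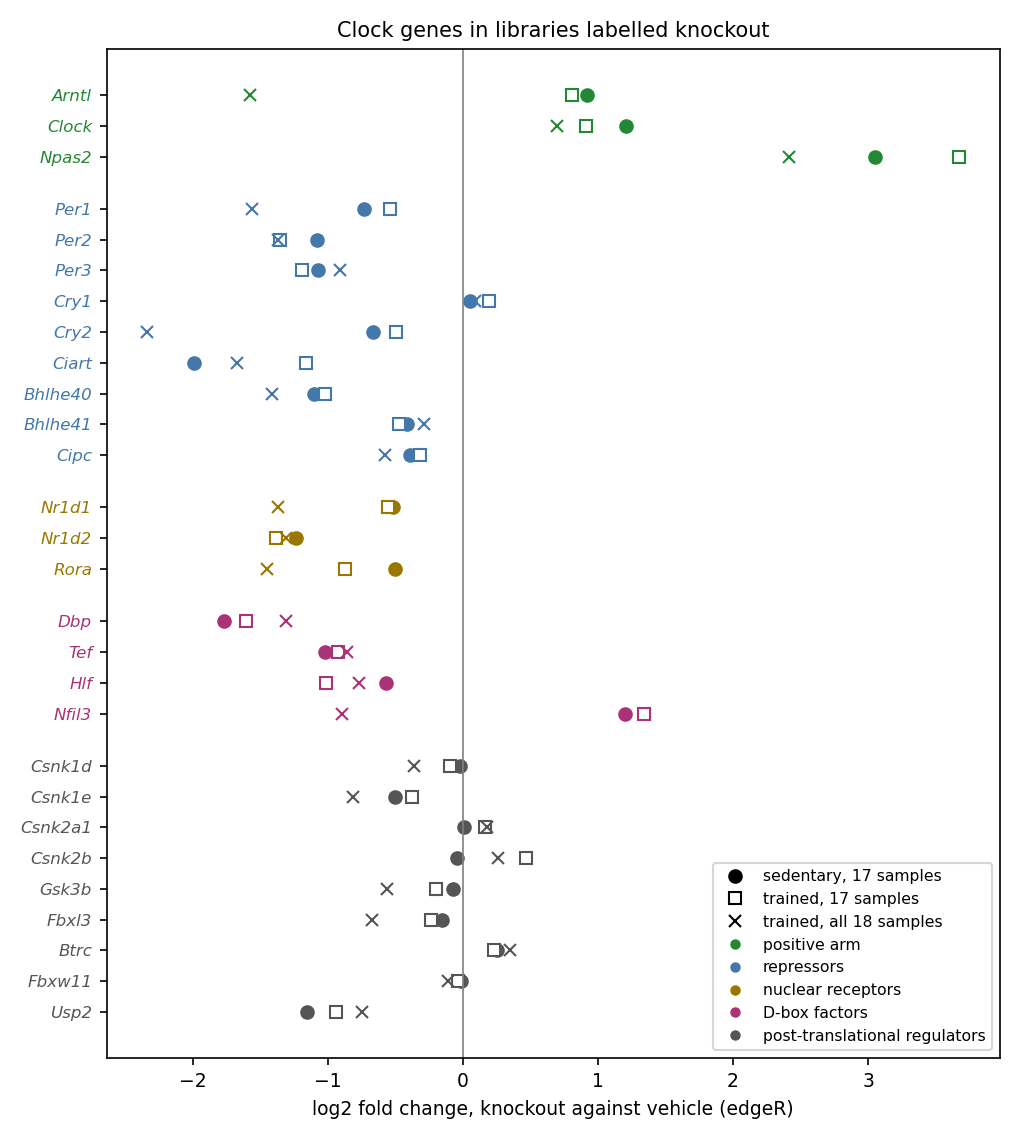
Log2 fold change of the 3 activator genes and other clock genes in libraries labelled knockout against vehicle, grouped by role. Filled circles are sedentary and open squares trained muscle, both without vehicle-trained library 2, and crosses are trained muscle with all 18 samples. Arntl, Clock, Npas2 and Nfil3 lie right of 0 and Per2, Nr1d2, Dbp and Tef left of 0 in both training states without that library, and the crosses of Arntl and Nfil3 lie left of 0.

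Regulators act on the clock proteins themselves. Of 9 tested, 1 fell in sedentary muscle with all samples, where 1.31% of all genes were called lower. Usp2, encoding a deubiquitinase, went from 339 to 153 CPM (log2 change -1.15, SE 0.215, edgeR adjusted p = 0.00448). Csnk1e, a kinase of PER proteins, was at 55.6 and 39.3 CPM and passed without vehicle-trained library 2 (log2 change -0.50, edgeR adjusted p = 0.000638). In trained muscle without that library 2 of the 9 fell and 1 rose, against 3.65% and 5.01% of all genes. The gene that rose was Csnk2b (log2 change 0.47, edgeR adjusted p = 0.0188).

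The remaining bHLH-PAS family, to which all 3 activators belong, was also examined, since some members can pair with one another. Of 16 listed, 11 were tested and 0 passed in either knockout comparison with all samples, with a median log2 change of -0.09 in sedentary and -0.19 in trained muscle. Arntl2, the nearest relative of Arntl, had sedentary means of 2.41 CPM (vehicle) and 2.13 CPM (knockout label; log2 change -0.19, SE 0.347, edgeR adjusted p = 0.993). Hif1a, the hypoxia factor, was at 34.2 and 36.3 CPM (log2 change 0.08, edgeR adjusted p = 0.994). Ncoa3, a coactivator of the family, was at 41.4 and 32.6 CPM and passed in sedentary muscle without library 2 (log2 change -0.35, edgeR adjusted p = 0.0105). Of 10 cofactors of CLOCK and BMAL1, among them Crebbp, Ep300, Kat2b and Sirt1, 0 passed in either knockout comparison, with or without that library. With 2.33% to 8.66% of all genes called in these comparisons, a count of 0 among 10 is near the background.

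The genes whose pattern was most like each activator were ranked by Pearson r of log2(CPM + 1) over samples, given as a description. The points share 4 groups and their library scaling. For Clock over 18 samples, the highest were Slc8a1, a sodium-calcium exchanger gene (r = 0.963), Tead4, a TEAD transcription factor gene (r = 0.956), and Dyrk2, a kinase gene (r = 0.956). The lowest were Mlf1 (r = -0.986), Tcap, which encodes the Z-disc protein telethonin (r = -0.978), and Smpdl3b (r = -0.976). These same 3 were also the lowest over the 17 samples without vehicle-trained library 2, while the 3 highest were then Gpc4 (r = 0.982), Wsb1 (r = 0.971) and Fgf11 (r = 0.971). Mean Tcap levels in sedentary muscle were 2230 CPM with vehicle and 607 CPM under the knockout label.

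For Npas2 over 18 samples, Sh3bp5 (r = 0.958), Tnfaip2 (r = 0.947) and Tead4 (r = 0.946) were the highest, and 8430426J06Rik (r = -0.950), Tcap (r = -0.947) and Rhobtb1 (r = -0.944) the lowest. Over 17 samples the highest for Npas2 were Tnfaip2 (r = 0.961), Sh3bp5 (r = 0.957) and Gfod2 (r = 0.950), and the lowest 8430426J06Rik (r = -0.979), Prxl2c (r = -0.971) and Aebp1 (r = -0.961). Tead4 was among the first 3 for Clock and for Npas2 over 18 samples and for neither over 17. For Arntl, over 18 samples Tmcc3 was the highest (r = 0.981) and Bpgm, a red-cell enzyme gene, the lowest (r = -0.989), and over 17 samples Gm40841 was the highest (r = 0.952) and Kcnab1, a potassium channel subunit gene, the lowest (r = -0.948). No gene of the first 3 highest or 3 lowest for Arntl was in both rankings.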

How the data were processed

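The authors deposited estimated counts per gene, mostly whole numbers (72.6% of values), although the table is named for CPM. Partek, STAR 2.7.8a and DESeq2, and the builds mm10 and GRCm39, are named in the submitters' processing notes without their role. The counting program, annotation and strand setting are not given in the sources used here, so gene coordinates are those of GENCODE M21 (GRCm38), and exon lengths too. Estimated counts were rounded, and genes with at least 1 CPM in at least 5 of 20 libraries were kept (14359). Of 190 pairs of libraries, 2 had a noise at 1000 to 10000 counts under 1.5 times that at 10 to 100 counts; they were summed for fits and averaged for values. The 4 group means were fitted in 1 model with edgeR 4.0.16 (R 4.3.3, TMM scaling, quasi-likelihood test, two-sided, Benjamini-Hochberg over all tested genes, threshold 0.05). The SE given with an edgeR log2 change is that change, without its sign, divided by the square root of the test's F statistic. It is thus derived from the test. DESeq2 1.42.0 was an alternative. One listed clock gene is in the counts of lists and is not reported here by itself. The same replicate numbers occur in each group, without a stated pairing. The genes, lists, tests and named genes (the 3 activators, the listed genes, and for each activator the 3 genes with the highest and the 3 with the lowest r) were chosen with earlier results of these data known. Alternatives that combine 2 changes were added after the data were seen.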

Additional observations from a re-analysis of the deposited data

Results flagged for a closer look

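Each of Arntl, Clock and Npas2 was examined in the 3 groups of 5 libraries for a library far from the rest. This was the case in 3 of 9 such groups, and each time the library was vehicle-trained library 2. Chance would give about 0.45 (1 in 20) if the 9 were separate. The 3 cases come from 1 library and so are not separate events. It held 142.1 CPM of Arntl, where the other 4 lay between 5.971 and 6.921 CPM. Its Clock level was 57.98 CPM, with the nearest other library at 34.47 CPM, and its Npas2 level was 2.271 CPM, with the nearest at 0.5989 CPM. The knockout trained group, with 3 samples, was too small to be examined in this way.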

How the results depend on the processing

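Log2 changes are given throughout, and alternatives that pair the removal of vehicle-trained library 2 with a second change were chosen after seeing the data. The knockout effect on Clock and on Npas2 in sedentary muscle stayed past the threshold in 26 of 26 alternatives each, from 1.174 to 1.25 and from 2.742 to 3.44. Arntl in sedentary muscle passed with only the 2 groups in the fit (0.9119) and, without library 2, with no filter (0.9126) or DESeq2 (0.911); leaving out single samples gave 0.7594 to 0.9751. In trained muscle Arntl turned positive without library 2, at 0.811 with no filter, 0.8026 with only the 2 groups and 0.8147 with DESeq2, and ranged from -1.866 to 0.8101 over single samples left out. Clock there missed the threshold with only the 2 groups (0.6923) and ranged from 0.517 to 0.9101. Npas2 there passed with 20 libraries taken as separate (2.413) and with DESeq2 (2.382), and without library 2 with no filter (3.673), only the 2 groups (3.669) or DESeq2 (3.716), and ranged from 2.122 to 3.674. The training effect in vehicle muscle turned negative without library 2: for Arntl at -0.04317 (no filter), -0.02612 (only the 2 groups) and -0.04218 (DESeq2), for Clock at -0.0001388 (no filter), and for Npas2 at -0.4958, -0.4789 and -0.5007 in the same order. It ranged from -0.03634 to 2.601 for Arntl and from -0.4895 to 1.159 for Npas2 over single samples left out. In knockout muscle these ranges were -0.4505 to 0.01057 for Arntl and -0.07818 to 0.3563 for Npas2. For Clock there, the range over all alternatives was -0.4782 to -0.1787, and 0 of 26 passed. The interaction without library 2 was 0.6306 (no filter) and 0.6433 (DESeq2) for Npas2, with a range of -1.027 to 0.6261, and -0.09629 (DESeq2) for Arntl. In the permutation test without library 2 the difference was 0.6823 for Arntl between genotypes in trained muscle, and with training in vehicle muscle -0.02846 for Arntl and -0.1058 for Npas2. Beyond the library left out, the cause was not tested.

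Replicate numbers did not pair the samples: same-numbered libraries correlated from -0.394 to 0.351, 11 of 30 pairs were over 0.1, and 5 of 20 libraries correlated best with their own number. With 20 libraries taken as separate, adding the replicate number as a block changed no call of the 3 genes: Npas2 in trained muscle passed without it (2.413) and with it (2.596). Of all genes in trained muscle, 1225 passed without the block and 980 with it.

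Counts of all genes past the threshold moved more. In sedentary muscle 334 became 1177 with only the 2 groups, 537 with DESeq2 and 251 to 1002 over single samples left out. In trained muscle 473 became 1225 with 20 separate libraries, 20 with only the 2 groups, 907 with DESeq2 and 177 to 1244 over single samples left out. The training effect in knockout muscle, with 0 genes, gave 49 with 20 separate libraries, 173 with DESeq2, 121 and 45 when vehicle-trained library 2 or 1 was left out, and 397 without the knockout-trained sample of libraries 1 and 4. The interaction gave 29 with DESeq2. Depth limits Npas2 most, at 0 to 14 counts in vehicle sedentary libraries.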

Other observations

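Beyond Arntl, Clock, Npas2 and Nfil3, further clock genes of vehicle-trained library 2 lay outside the range of the other 4 libraries of its group. Csnk1e, encoding a kinase of PER proteins, was at 142 CPM against 46.4 to 56.2 CPM. Per3 was at 5.11 CPM against 41.7 to 52.7 CPM, Hlf at 7.81 against 37.6 to 43.8 CPM, and Usp2 at 101 against 232 to 310 CPM. Larger rises were those of Cry2, at 834 CPM against 55.4 to 63 CPM, and Per1, at 342 against 36.5 to 72 CPM. Nr1d1 was at 314 CPM against 61 to 74.1 CPM, and Rora at 578 against 131 to 192 CPM. Dbp was at 5.89 CPM, where the other libraries held 110 CPM or more. Cry1 was at 26.3 CPM against 16.2 to 21.6 CPM. Per2, at 39.3 CPM, lay within the range of the others, 31.4 to 43.6 CPM. Arntl2 was at 0.781 CPM against 1.65 to 3.33 CPM.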
